A study of Mus musculus with 29 samples.

Results

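Skp2, Cks1b, Cul1, Rnf123 and Fbxw7 encode parts of the ubiquitin ligases that mark the cell cycle inhibitor p27 for destruction, or of a closely related ligase. They were taken by name from the 51912 gene IDs of the deposited table and set beside Cdkn1b, the gene of p27 itself. All 5 passed the filter on low counts in every comparison.

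The protein p27 holds back the cyclin-dependent kinases that drive a cell into DNA replication, and in the ovary it is known as a brake on the growth of resting follicles. SKP2 is the F-box protein, the receptor, of the SCF ligase that takes phosphorylated p27, CKS1 (from Cks1b) is the small protein that lets SKP2 bind it, and CUL1 is the scaffold that holds the ligase together. RNF123, also called KPC1, is the catalytic subunit of a separate cytoplasmic ligase for p27, while FBXW7 is the F-box receptor of another SCF ligase, best known for taking cyclin E, Myc and Notch. This control acts on the protein. The values here are messenger RNA levels, and neither ligase activity nor p27 protein was measured.

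The samples were ovary cells of Mus musculus, dissociated before RNA extraction, at the embryonic ages E13.5 and E18.5, at PND8 (day 8 after birth) and in adults of 12 weeks (12wk). The wild-type groups (Cdkn1b +/+) had 4 libraries at each age. The Cdkn1b-null groups (Cdkn1b -/-) had 4 libraries at E18.5 and 3 at each of the other ages, which gives 29 libraries in 8 groups. The labels name no other allele, no agent and no strain for any group, do not say which stretch of Cdkn1b the null allele lacks, and do not say whether libraries came from separate animals or pools. The p-values therefore measure the spread between these libraries, which may be technical. In a bulk sample, fewer cells of a type and less RNA per cell cannot be told apart.

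Levels are given in CPM, counts scaled to the library total with TMM factors over all 29 libraries, in the order of the replicate numbers (1 to 4 in wild type and in E18.5 null, and 1, 3 and 4 in the other null groups). A gene is described as changed where its adjusted p, from edgeR's quasi-likelihood test with Benjamini-Hochberg adjustment over all genes tested, was under 0.05, and fold changes use the scaling of the libraries compared. Library totals ran from 14.1 to 24.9 M counts in the embryonic groups and from 24.1 to 48.2 M in the postnatal groups, so depth and age cannot be told apart between E18.5 and PND8. The lowest level of any of the 5 genes was 14.1 CPM, far above the 0.0622 to 0.213 CPM that 3 counts are worth in these libraries, a floor that covers counting error only. Foxl2, a defining gene of granulosa cells, was detected in all 8 groups, from 4.19 CPM upwards, whereas the germ cell gene Ddx4 fell from group ranges of 96.6 to 125 CPM in wild type at E13.5 to 0.258 to 0.792 CPM at 12wk. In wild-type E13.5 replicate 3, haemoglobin transcripts made up 18.8% of counts, against 0.697% to 1.04% in the rest of that group.

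Cdkn1b was lower in every null library than in any wild-type library of the same age. At E13.5 it stood at 24.1, 19.1, 22.2 and 26.1 CPM in wild type and 4.29, 4.75 and 4.47 CPM in null libraries. The E18.5 values were 123, 97.2, 95.2 and 97.7 CPM against 9.44, 15.6, 11.4 and 13.6 CPM, with no library between 15.6 and 95.2 CPM. The genotypes were closer in PND8 libraries, at 133, 146, 173 and 140 CPM against 79.8, 69.6 and 65 CPM, and in 12wk libraries wild type was spread widely, at 124, 265, 127 and 225 CPM against 42.1, 56.2 and 55.6 CPM. Reads assigned to the gene were thus reduced but present, and the mean null level was 19.7%, 12.1%, 48.3% and 27.7% of wild type at the 4 ages. The log2 fold change, null over wild type, was −2.38 ± 0.187 (SE, n = 4 and 3, edgeR adjusted p = 0.0114) at E13.5, −3.06 ± 0.163 (n = 4 and 4, edgeR adjusted p = 1.12e-05) at E18.5 and −1.06 ± 0.102 (n = 4 and 3, edgeR adjusted p = 0.0216) at PND8. At 12wk it was −1.85 ± 0.309 and missed the threshold (edgeR adjusted p = 0.211). The calls at E13.5 and PND8 each rested on few libraries: without wild-type E13.5 replicate 1 or 4, or any 1 null E13.5 library, the adjusted p lay between 0.0831 and 0.207, and without null PND8 replicate 3 or 4 it was 0.117 or 0.0964. In a fit of all 8 groups the PND8 call was lost (−1.05, edgeR adjusted p = 0.106) and the 12wk difference was called (edgeR adjusted p = 0.000105).

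**Figure D1:**
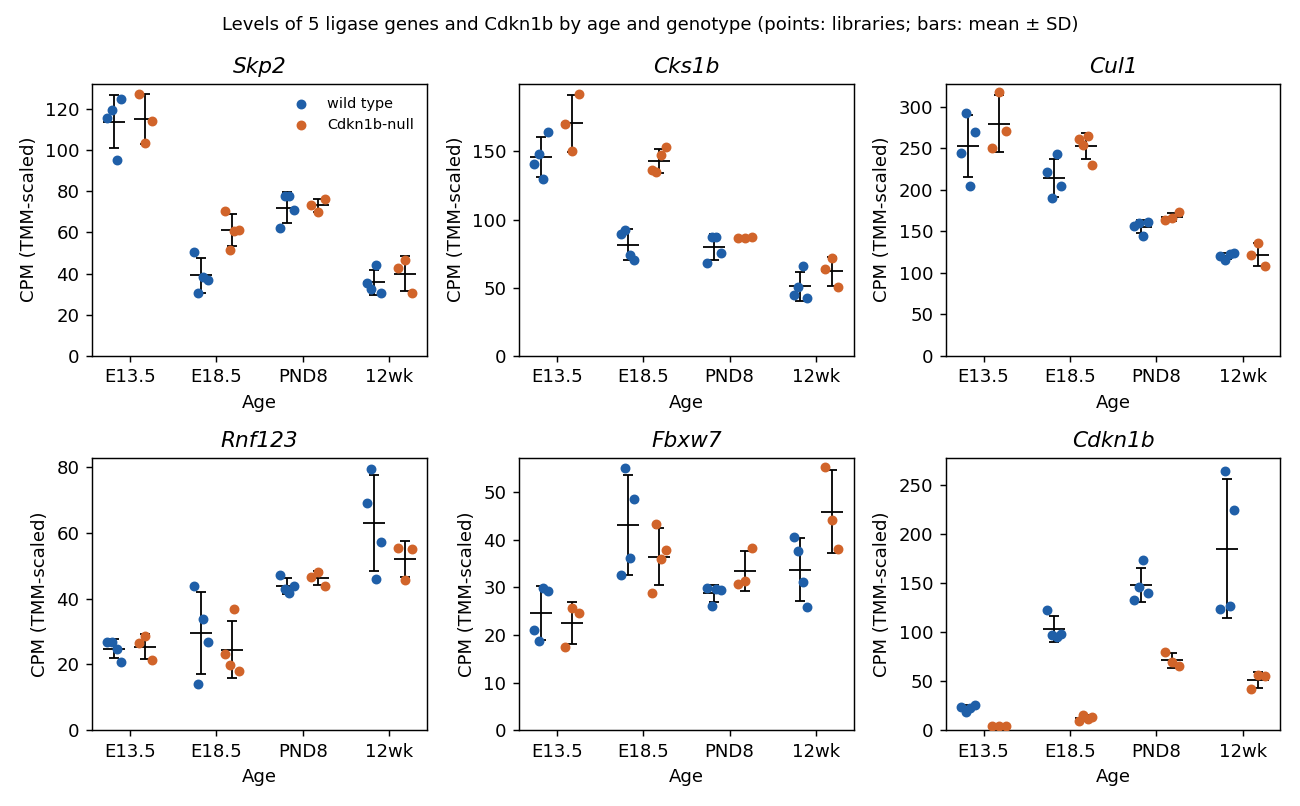
Level of each ligase gene and of Cdkn1b, in TMM-scaled CPM on the vertical axis, by age, with wild type in blue and Cdkn1b-null in orange. Points are libraries and bars are mean ± SD. Skp2 and Cks1b separate by genotype at E18.5, with Cks1b at 70.1 to 92.6 CPM in wild type and 135.1 to 153.4 CPM in null libraries.

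Between the genotypes, the receptor Skp2 and its helper Cks1b were higher in Cdkn1b-null ovaries at E18.5, and neither changed at the other 3 ages. Skp2 stood at 50.6, 30.8, 38.2 and 36.8 CPM in the E18.5 wild-type libraries and at 70.7, 51.7, 60.9 and 61.2 CPM in the null libraries. The groups did not overlap, which held for 14.8% of genes tested, although wild-type replicate 1, at 50.6 CPM, and null replicate 2, at 51.7 CPM, lay close together. Cks1b stood at 89.6, 92.6, 73.7 and 70.1 CPM in wild type and at 136.4, 135.1, 147.5 and 153.4 CPM in the null libraries, a wide gap with no library between 92.6 and 135.1 CPM. Skp2 was 1.55-fold higher (log2 fold change 0.64 ± 0.155 SE, n = 4 and 4, edgeR adjusted p = 0.0411) and Cks1b 1.75-fold higher (0.80 ± 0.114, edgeR adjusted p = 0.00321). These were 2 of the 5 ligase genes, where 4.99% of the 16322 genes tested passed and 3.32% passed as higher. Cks1b kept its call without any 1 of the 8 libraries, with adjusted p from 0.00332 to 0.0194. Skp2 lost its call without wild-type replicate 3 or 4 or null replicate 1, 3 or 4, where its log2 fold change was 0.56 to 0.64 and its adjusted p 0.0875 to 0.122, and also when GC content and length were offset in the fit, an alternative chosen after seeing the data (0.64, edgeR adjusted p = 0.0527).

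Skp2 (ENSMUSG00000054115) lies on chromosome 15, from 9111985 to 9155425 on the minus strand, and Cks1b (ENSMUSG00000028044) on chromosome 3, from 89415472 to 89418383 on the minus strand (GRCm38, GENCODE M21). Their promoters are shown because both genes were called higher in null libraries at E18.5. They are also the only members with the letters TTTGAA, the core of the cell cycle genes homology region, in the 250 bases before an annotated start. Capitals mark TTTGAA or, on the other strand, TTCAAA, and the stretches run 5′ to 3′ along the gene's strand (RefSeq, GRCm38.p6).
Skp2, chr15:9155467-9155496, bases 71 to 42 before the start: tgtgctgaTTTGAAtaTTTGAAgtcataaa
Cks1b, chr3:89418351-89418380, bases 89 to 60 before the start: ccaatcgaggacTTCAAAatggagctgtcc
Cks1b, chr3:89418292-89418321, bases 30 to 1 before the start: tgcgggcggtgtgTTTGAAagcgaggccaa
The Skp2 stretch holds both copies 2 bases apart, and the Cks1b copies stand 77 and 17 bases before the start. GENCODE M21 begins Cks1b 92 bases upstream of the RefSeq start, so both Cks1b stretches lie in its annotated exon. TTTGAA occurs on either strand in 16% of 32851 such windows and at least 2 times in 1.81% of them, so single copies are common. The window of the second RefSeq start of Skp2 and the windows of Cul1, Rnf123, Fbxw7 and Cdkn1b did not hold it. The 4 E2F-type words TTTGGCGC, TTTCGCGC, TTTCCCGC and TTTGCCGC, which are in 1.86% of windows, were in none of those of the 5 genes or Cdkn1b, the E-box CACGTG (6.02% of windows) was in 1 Cul1 window, and the GC-box GGGCGG (32.7%) was in at least 1 window of each gene. No listed match of GGGCGG overlapped TTTGAA. A match of letters is a description and not a measured binding site.

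Other genes of dividing cells were higher in the same E18.5 null libraries. Of 11 proliferation markers, 10 rose, where 3.32% of all genes tested did, among them Top2a, which untangles DNA (log2 fold change 1.39 ± 0.15, edgeR adjusted p = 0.000955), Aurkb, a mitotic kinase (1.41 ± 0.177, edgeR adjusted p = 0.0019), and Ccnb1, the mitotic cyclin B1 (1.42 ± 0.181, edgeR adjusted p = 0.00227). The eleventh, Mki67, missed the threshold at 0.68 ± 0.227 (edgeR adjusted p = 0.119). The median log2 fold change of the 11 was 1.11, beside −0.04 over all genes, and above those of Skp2 and Cks1b. The summed level of the 11 was 1231, 782, 908 and 739 CPM in wild type and 1894, 1838, 2434 and 2055 CPM in the null libraries. Within wild type, replicate 1 was highest both in this sum and in Skp2, while Cks1b was highest in replicate 2, and among the null libraries the sum was highest in replicate 3, Skp2 in replicate 1 and Cks1b in replicate 4. The part of proliferation in the Skp2 and Cks1b results was not tested.

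**Figure D2:**
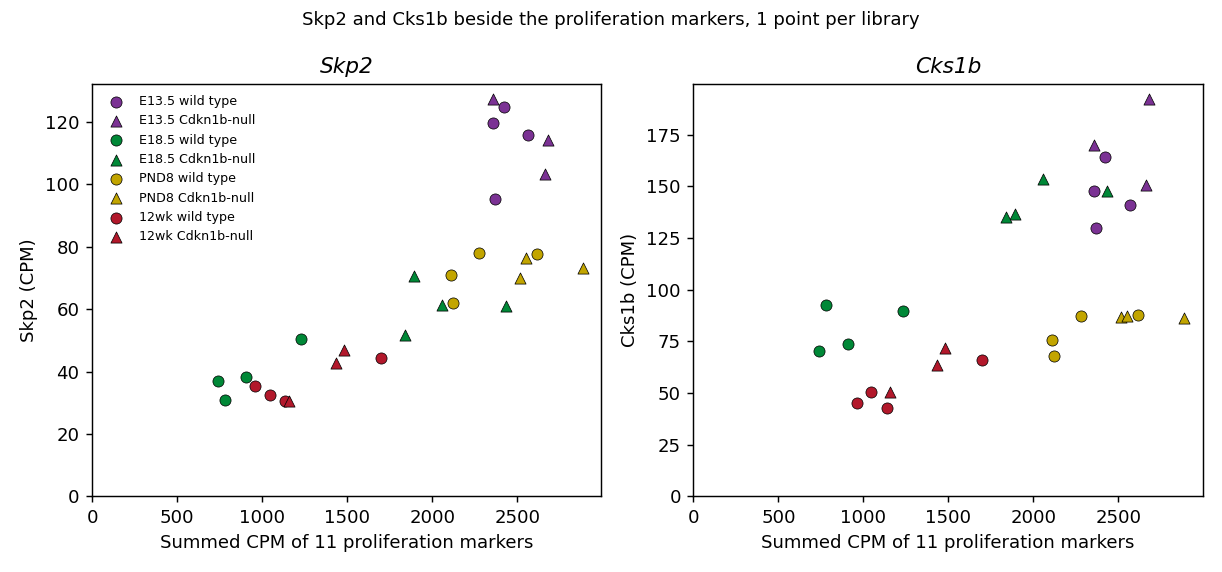
Skp2 (left) and Cks1b (right) in CPM against the summed CPM of 11 proliferation markers, 1 point per library, with ages by colour and genotypes by shape. E18.5 wild-type libraries (739 to 1231 CPM) and null libraries (1838 to 2434 CPM) are apart on both axes, and PND8 libraries reach similar marker sums as E13.5 libraries at lower Skp2 and Cks1b.

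Some markers of ovarian cell types were also called with genotype at E18.5. Of all genes tested at that age, 4.99% were called, 3.32% higher and 1.67% lower. Of 6 genes listed as theca and luteal markers, 2 were higher in null ovaries, the aromatase Cyp19a1 (2.51 ± 0.489, edgeR adjusted p = 0.016) and Hsd3b1 (0.75 ± 0.189, edgeR adjusted p = 0.0478). The listing does not show that such cells were present at E18.5. The summed level of the 6 was 157 to 269 CPM in wild type and 297 to 397 CPM in null libraries. Among single genes tested, 14.8% did not overlap between genotypes. Of 6 stromal markers, Nr2f2 (−0.52 ± 0.129, edgeR adjusted p = 0.0436) and Tcf21 (−0.78 ± 0.195, edgeR adjusted p = 0.0456) were lower, with overlapping sums. Of 5 granulosa markers tested, Inha rose (1.14 ± 0.188, edgeR adjusted p = 0.00795), while the other 4 had fold changes below 0 that were not called, and the median was −0.15. None of the 5 germ cell markers tested changed. The summed level of all 6 listed was 417, 1031, 361 and 741 CPM in wild type and 273, 623, 426 and 295 CPM in null libraries. The part of cell composition in the Skp2 and Cks1b results was not tested.

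At E13.5 the genotypes overlapped for all 5 genes. Skp2 stood at 116, 120, 95.4 and 125 CPM in wild type and 127, 103 and 114 CPM in null libraries (log2 fold change −0.02 ± 0.129, edgeR adjusted p = 0.996). Cks1b stood at 141, 148, 130 and 164 CPM against 170, 150 and 192 CPM (0.20 ± 0.123, edgeR adjusted p = 0.988). At PND8 Skp2 was 62, 77.9, 77.6 and 70.9 CPM in wild type and 73.3, 69.9 and 76.4 CPM in null libraries (0.01 ± 0.0832, edgeR adjusted p = 0.971), so the null values lay inside the wild-type range. The 3 null libraries of that age were nearly level for Cks1b, at 86.4, 86.8 and 87 CPM, within the wild-type values of 68.1, 87.3, 87.5 and 75.6 CPM (0.11 ± 0.0865, edgeR adjusted p = 0.587). At 12wk Skp2 stood at 35.5, 32.4, 44.2 and 30.6 CPM in wild type and 42.8, 46.8 and 30.5 CPM in null libraries (0.16 ± 0.164, edgeR adjusted p = 0.805), and Cks1b at 45, 50.3, 65.8 and 42.5 CPM against 63.6, 71.7 and 50.6 CPM (0.28 ± 0.16, edgeR adjusted p = 0.629). In both, the highest wild-type library was replicate 3, which also had the highest sum of proliferation markers of its group, 1700 CPM.

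No ligase gene changed with genotype at these 3 ages, but few genes of any kind did: 0.00606% of those tested at E13.5, 0.349% at PND8 and 0.0115% at 12wk. At an unadjusted p under 0.05, the 5 genes gave 0 at E13.5, 0 at PND8 and 1 at 12wk (Fbxw7), where 3.49%, 15% and 9.63% of all genes passed. DESeq2 also called 0 of the 5 at each of these ages. A change in the genotype effect with age was tested directly in a fit of all 29 libraries. No ligase gene passed the genotype by age interaction, which 0.806% of genes passed: the edgeR adjusted p was 0.289 for Skp2 and 0.186 for Cks1b (unadjusted 0.0201 and 0.00562). The genotype effect at E18.5 exceeded that at E13.5 by 0.63 ± 0.216 for Skp2 (edgeR adjusted p = 0.224) and 0.58 ± 0.192 for Cks1b (edgeR adjusted p = 0.198), on the log2 scale, a change that 0.653% of genes passed. At PND8 it was lower than at E18.5, by −0.62 ± 0.216 (edgeR adjusted p = 0.385) and −0.69 ± 0.192 (edgeR adjusted p = 0.176), where 0.329% of genes passed. The effects on Skp2 and Cks1b are thus called at E18.5 and not shown to differ between ages.

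**Figure D3:**
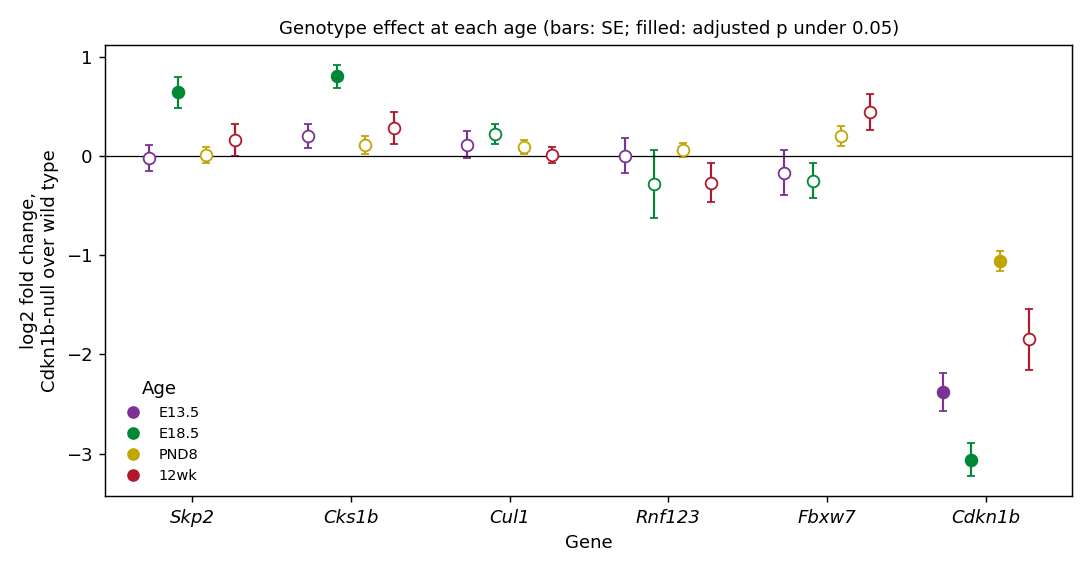
Log2 fold change, Cdkn1b-null over wild type, of each gene at the 4 ages, with bars of 1 SE and filled points where the adjusted p was under 0.05. Among the ligase genes the filled points are Skp2 (0.64) and Cks1b (0.80) at E18.5, while Cdkn1b is below −1 at every age.

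The scaffold Cul1 did not change with genotype at any age. At E18.5 it stood at 221, 190, 243 and 205 CPM in wild type and at 261, 254, 265 and 230 CPM in null libraries. Null replicate 4 fell within the wild-type range and the other null libraries above it (0.22 ± 0.101, unadjusted p = 0.0477, edgeR adjusted p = 0.221). At PND8 the null libraries, at 164, 166 and 173 CPM, all lay above the wild-type ones, at 157, 160, 145 and 162 CPM, by a small margin (0.09 ± 0.0698, edgeR adjusted p = 0.564), and 14.5% of genes tested were separated in this way at PND8. At E13.5 wild type had 244, 292, 205 and 270 CPM and null had 251, 318 and 271 CPM (0.11 ± 0.136, edgeR adjusted p = 0.988). At 12wk the wild-type values of 121, 116, 123 and 124 CPM had the smallest SD of any Cul1 group (3.54 CPM), and the null values of 121, 136 and 109 CPM lay on both sides of them (0.01 ± 0.0818, edgeR adjusted p = 0.984).

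Rnf123, the catalytic subunit of the other p27 ligase, was the most variable of the 5 at E18.5. It stood at 43.8, 14.1, 33.8 and 26.8 CPM in wild type and at 23.2, 19.7, 37 and 18 CPM in null libraries of that age, with wild type spread more widely than the genotypes differed (−0.28 ± 0.342, edgeR adjusted p = 0.668). Its level in PND8 libraries was far more even, at 47.2, 43, 41.6 and 43.7 CPM in wild type and 46.5, 48.1 and 43.9 CPM in null (0.06 ± 0.0743, edgeR adjusted p = 0.75). The E13.5 values were 26.7, 26.8, 24.7 and 20.6 CPM in wild type and 26.4, 28.5 and 21.3 CPM in null (0.00 ± 0.175, edgeR adjusted p = 0.999). At 12wk wild type had 69.1, 79.5, 45.8 and 57.1 CPM and null had 55.4, 45.7 and 55 CPM (−0.27 ± 0.194, edgeR adjusted p = 0.703), so the upper wild-type values were above all null ones and the lowest was not. Rnf123 (ENSMUSG00000041528, chromosome 9, 108051534 to 108083346, minus strand) shares 13.9% of its exonic bases with the opposite-strand gene Gmppb, whose group means were 8.09 to 17.7 CPM. The strand setting of the counting is not given in the sources used here, so reads in that shared stretch cannot be told apart.

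Fbxw7, the receptor for cyclin E and Myc, showed no genotype effect past the threshold. The smallest unadjusted p was at 12wk, where wild type had 40.5, 37.6, 31.1 and 25.8 CPM and null had 55.3, 44.2 and 38.2 CPM (0.44 ± 0.18, unadjusted p = 0.0415, edgeR adjusted p = 0.499). At PND8 all null libraries (30.8, 31.3 and 38.4 CPM) lay above all wild-type libraries (30, 26.1, 29.6 and 29.4 CPM), though null replicate 1 and wild-type replicate 1 nearly met (0.20 ± 0.103, edgeR adjusted p = 0.393). Genotypes did not overlap for 14.5% of genes tested at PND8. At E13.5 the values were 21.1, 18.7, 29.9 and 29.2 CPM in wild type and 17.5, 25.7 and 24.6 CPM in null (−0.17 ± 0.227, edgeR adjusted p = 0.988). The E18.5 libraries had 32.7, 55.1, 36.2 and 48.7 CPM in wild type and 28.9, 43.2, 36 and 37.9 CPM in null (−0.25 ± 0.177, edgeR adjusted p = 0.433). At that age the 3 libraries highest in Fbxw7, wild-type replicates 2 and 4 and null replicate 2, were also the 3 highest in summed germ cell markers (1031, 741 and 623 CPM), and wild-type replicate 2 was the lowest of all 8 in Rnf123. Null replicate 4, the next highest in Fbxw7 (37.9 CPM), stood at only 295 CPM in the germ cell markers. Replicates 2 and 4 of both genotypes, the highest in Fbxw7, were also the lowest in haemoglobin transcripts. These made up 0.172% to 0.738% of their counts, against 1.35% to 3.59% in replicates 1 and 3. The part of germ cell RNA, or of this split between libraries, in the Fbxw7 and Rnf123 values was not tested.

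Across ages in wild type, Skp2, Cks1b and Cul1 were highest at E13.5 and lowest at 12wk, whereas Rnf123 and Cdkn1b ran the other way. From E13.5 to 12wk the mean level was 3.19-fold lower for Skp2, 2.86-fold lower for Cks1b and 2.09-fold lower for Cul1. Rnf123 was 2.54-fold higher at 12wk than at E13.5, and Cdkn1b 8.08-fold. Fbxw7 had another course, with its highest mean at E18.5 (43.2 CPM), 1.75-fold its lowest, at E13.5.

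The steps differed in which genes moved. From E13.5 to E18.5, Skp2 fell by 1.55 on the log2 scale (SE 0.163, n = 4 and 4, edgeR adjusted p = 9.69e-05) and Cks1b fell by 0.85 (SE 0.133, edgeR adjusted p = 0.000921), while Fbxw7 rose by 0.79 (SE 0.217, edgeR adjusted p = 0.0175) and Cdkn1b by 2.16 (SE 0.144, edgeR adjusted p = 1.08e-05). Cul1 (−0.25, edgeR adjusted p = 0.192) and Rnf123 (0.25, edgeR adjusted p = 0.539) overlapped between these ages. This makes 3 of 5 ligase genes, where 34% of 16603 genes passed. The Fbxw7 call was lost without wild-type E13.5 replicate 1 (adjusted p 0.0549) or wild-type E18.5 replicate 2 (0.0566), the library richest in germ cell markers. Proliferation markers fell over the same step in 10 of 11 cases, with a median of −1.47.

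From E18.5 to PND8, Skp2 rose by 0.80 (SE 0.145, edgeR adjusted p = 0.000506). The 4 wild-type libraries at each age lay clear of each other, as they did for 70.6% of genes tested. Cul1 fell by 0.54 (SE 0.099, edgeR adjusted p = 0.000537) and Fbxw7 fell by 0.67 (SE 0.172, edgeR adjusted p = 0.00473). Cks1b (−0.12, edgeR adjusted p = 0.42) and Rnf123 (0.49, edgeR adjusted p = 0.11) missed the threshold. So 3 of 5 passed, in a step where 74.6% of 17421 genes did. From PND8 to 12wk, Skp2 fell by 0.94 (SE 0.122, edgeR adjusted p = 0.000834), Cks1b fell by 0.57 (SE 0.138, edgeR adjusted p = 0.0132) and Cul1 fell by 0.29 (SE 0.0689, edgeR adjusted p = 0.012), while Rnf123 rose by 0.59 (SE 0.155, edgeR adjusted p = 0.0193). These were 4 of 5, where 30.5% of 17293 genes passed. The rise in Rnf123 was lost without PND8 replicate 2 or 3 or 12wk replicate 1 (adjusted p 0.0512 to 0.0551), and in a fit of all 8 groups (0.52, adjusted p 0.105), and the groups overlapped, since 12wk replicate 3 had 45.8 CPM and PND8 replicate 1 had 47.2 CPM. All 11 proliferation markers fell over this last step.

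In the Cdkn1b-null libraries Skp2, Cks1b and Cul1 also had their highest mean at E13.5 and their lowest at 12wk. Rnf123 was highest at 12wk and lowest at E18.5, Fbxw7 highest at 12wk and lowest at E13.5, and Cdkn1b highest at PND8 and lowest at E13.5. A difference in course between the genotypes was tested only as the genotype by age interaction given above, and these steps and the genotype effects share libraries and are given side by side. From E13.5 to E18.5, Skp2 fell by 0.89 (SE 0.126, n = 3 and 4, edgeR adjusted p = 0.00129), Fbxw7 rose by 0.72 (SE 0.176, edgeR adjusted p = 0.0146), and Cks1b was lower by a margin that missed the threshold (−0.23, edgeR adjusted p = 0.128), so 2 of 5 passed where 30.2% of genes did. The next step, to PND8, brought a fall of Cks1b (−0.79 ± 0.0789, edgeR adjusted p = 7.43e-06) and of Cul1 (−0.65 ± 0.0718, edgeR adjusted p = 1.49e-05) and a rise of Rnf123 (0.85 ± 0.216, edgeR adjusted p = 0.00543), 3 of 5 where 77.4% passed, and Skp2 was not called (0.20 ± 0.0993, edgeR adjusted p = 0.0959). Cks1b was thus called lower from E13.5 to E18.5 in wild type and from E18.5 to PND8 in null libraries. From PND8 to 12wk, Skp2 (−0.79, edgeR adjusted p = 0.00634), Cks1b (−0.40, edgeR adjusted p = 0.0275) and Cul1 (−0.38, edgeR adjusted p = 0.0139) fell and Fbxw7 (0.54, edgeR adjusted p = 0.0364) rose with overlapping groups, 4 of 5 where 29.1% passed. Of the last 4 calls, Cks1b was lost without any 1 PND8 library or 12wk replicate 1 (adjusted p 0.0635 to 0.0911), Fbxw7 without PND8 replicate 1 or 3 or 12wk replicate 1 (0.0852 to 0.135), and Cul1 without PND8 replicate 3 or 4 (0.0548 and 0.0517).

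The step from E18.5 to PND8 depended on how GC content and transcript length were treated. Across genes, the wild-type fold change of that step had a Spearman rho of 0.23 with GC content and 0.28 with length, beside −0.05 and −0.04 for the step before it. The transcript of Rnf123 was GC-rich (57.2%, above 88.5% of genes) and that of Cks1b was short (0.85 kb, above 8.2% of genes). With an offset for both properties, chosen after seeing the data, Rnf123 in wild type went from 0.49 to −0.92 (edgeR adjusted p = 0.00768), Cks1b from −0.12 to 0.52 (edgeR adjusted p = 0.000728) and Cul1 from −0.54 to −0.19 (edgeR adjusted p = 0.0832). In null libraries Rnf123 went from 0.85 to −0.69 (edgeR adjusted p = 0.0115), and Cks1b lost its call at −0.15 (edgeR adjusted p = 0.126). Skp2 in wild type stayed called and higher, at 0.43, while in null libraries, where it was not called, it went from 0.20 to −0.21 (edgeR adjusted p = 0.121). Fbxw7 in wild type stayed lower, at −1.24, and in null libraries it gained a call, from −0.19 to −0.80 (edgeR adjusted p = 0.00062). The directions of Rnf123, of Cks1b in wild type and of Skp2 in null libraries between E18.5 and PND8 thus depend on this choice, and so does the higher mean of Rnf123 at 12wk than at E13.5, which spans this step. The header of the deposited table names a folder that combines 2 projects, with no map of libraries to projects, so a difference between projects and the change with age cannot be told apart over this step. The genotype effect also varied with these properties across genes. Its rho with GC content was −0.32 at PND8 and −0.21 at 12wk, beside −0.06 at E18.5. With length it was −0.22 at E13.5, beside 0 at E18.5. Transcripts of Cul1 and Fbxw7, whose genotypes did not overlap at PND8, were above 22.8% and 35.3% of genes in GC content. The part of GC content in that separation was not tested.

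**Figure D4:**
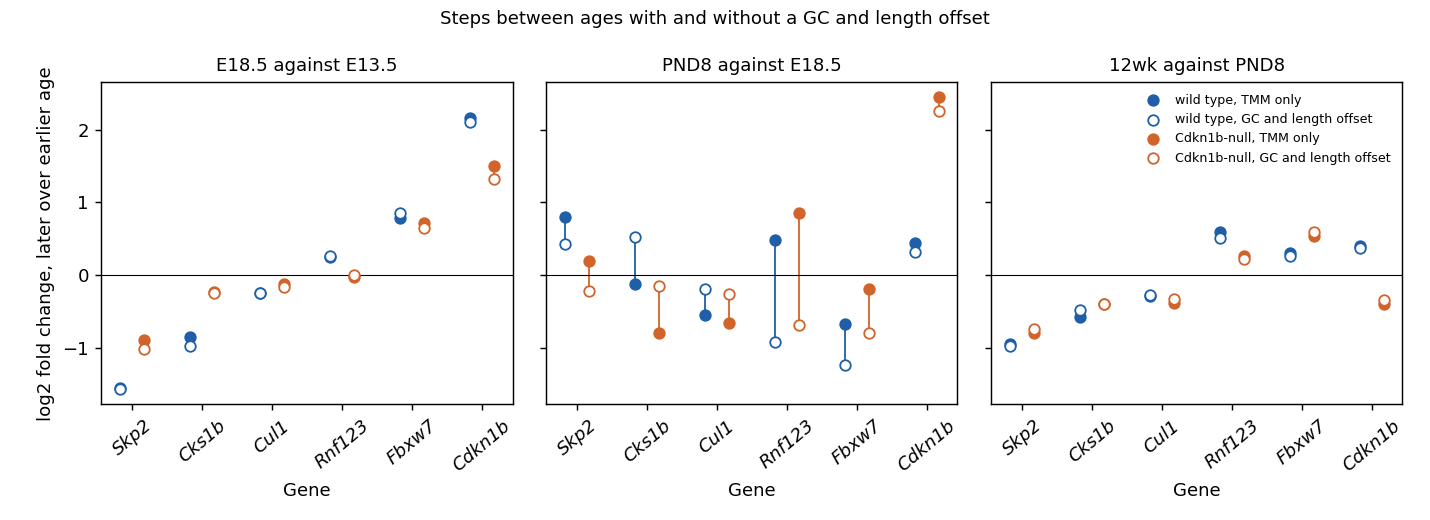
Log2 fold change over each step between ages, with TMM scaling alone (filled) and with a GC and length offset (open), wild type in blue and Cdkn1b-null in orange. The open and filled points nearly coincide in the first and last step, and part for most genes in the step from E18.5 to PND8, where Rnf123 changes sign in both genotypes.

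Compared per kilobase of exon, which allows levels of different genes to be set side by side, Cks1b was the most abundant of the 5 in every group. In wild type at E13.5 it stood at 129 ± 12.8 CPM per kb (SD, n = 4), Cul1 at 62.6 ± 9.31, Skp2 at 14.5 ± 1.63, Rnf123 at 3.66 ± 0.427 and Fbxw7 at 3.51 ± 0.808. The last 2 did not differ beyond their spread, and their order turned when the longest transcript was used as the length (5.22 and 5.53). At 12wk in wild type the order was Cks1b (45 ± 9.23 CPM per kb), Cul1 (29.9 ± 0.876), Rnf123 (9.31 ± 2.16), Fbxw7 (4.79 ± 0.934) and Skp2 (4.53 ± 0.769), with Skp2 and Fbxw7 within each other's spread. On this scale Cdkn1b went from 5.03 ± 0.657 CPM per kb at E13.5, below Skp2, to 40.7 ± 15.6 at 12wk, above it. As a ratio of CPM within each library, Skp2 over Cdkn1b had a mean log2 of 2.32 ± 0.23 (SD, n = 4) in E13.5 wild type. It was below 0 at the later ages, at −1.42 ± 0.17 (E18.5), −1.04 ± 0.12 (PND8) and −2.31 ± 0.76 (12wk). In null libraries the ratio was 4.67 ± 0.22 (n = 3), 2.30 ± 0.49 (n = 4), 0.04 ± 0.18 (n = 3) and −0.37 ± 0.45 (n = 3) in order of age, above wild type at each age, a difference that contains the lower Cdkn1b count itself.

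In the rest of the ligase machinery 2 genes were called with genotype at E18.5, in lists of 5, 15, 7 and 5 genes, where 4.99% of all genes tested were called and 3.32% were higher. Among the SCF core and charging enzymes, 1 of 5 was higher, Uba1, the enzyme that activates ubiquitin (0.37 ± 0.0913, edgeR adjusted p = 0.0425), while the adaptor Skp1 (0.03, edgeR adjusted p = 0.89) and the RING protein Rbx1 (0.06, edgeR adjusted p = 0.801), which sit on the same CUL1 scaffold as SKP2, stood near 0. In the cullin neddylation and COP9 signalosome list, 1 of 15 was higher, Cand1, which exchanges the F-box receptors on CUL1 (0.48 ± 0.0957, edgeR adjusted p = 0.018), and the median was 0.14. None of 7 other partners of the p27 ligases and none of 5 other cullins changed. Cks2, the close relative of Cks1b, was at 0.43 ± 0.196 (edgeR adjusted p = 0.227), and the Cks1b copy Cks1brt reached no more than 0.236 CPM in any library.

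Genes that act on SKP2, on p27 or as targets of these ligases gave the other calls at E18.5, to be read against the same 4.99% of all genes called and 3.32% called higher. Fbxo5, an inhibitor of the ligase that destroys SKP2, was higher (1.09 ± 0.203, edgeR adjusted p = 0.014), 1 of 5 in its list, and Foxm1, a cell cycle transcription factor, missed the threshold at 0.60 ± 0.214 (edgeR adjusted p = 0.134). Of 12 kinases, cyclins and exporters that act on p27, 4 were higher, the cyclins Ccne1 (1.01 ± 0.202, edgeR adjusted p = 0.018), Ccna2 (1.11 ± 0.217, edgeR adjusted p = 0.0182) and Ccne2 (0.66 ± 0.161, edgeR adjusted p = 0.041), and their partner kinase Cdk2 (0.56 ± 0.127, edgeR adjusted p = 0.0295). Both cyclins E are targets of FBXW7 and made up the 2 of 8 in the list of FBXW7 targets that changed. Of 7 targets of SKP2, the replication licensing factor Cdt1 was higher (1.5 ± 0.145, edgeR adjusted p = 0.000729) and Cdkn1b lower. Among the other F-box genes, Ccnf, itself a cyclin-like gene of dividing cells, was higher (1.25 ± 0.23, edgeR adjusted p = 0.0139). None of the 3 Foxo genes, which activate Cdkn1b, changed. At E13.5, PND8 and 12wk no gene of these lists changed with genotype other than Cdkn1b, at E13.5 and PND8.

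**Figure D5:**
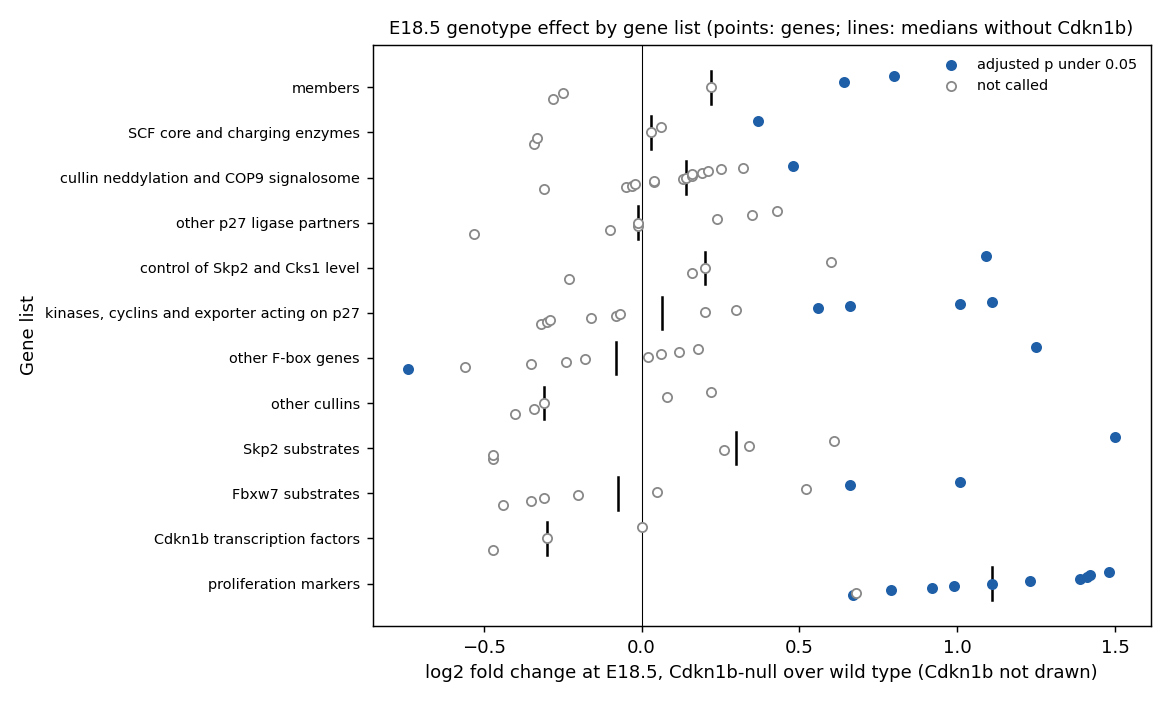
Log2 fold change at E18.5, Cdkn1b-null over wild type, of each gene but Cdkn1b in the ligase, regulator and target lists. Filled points have an adjusted p under 0.05, and a line marks each list's median without Cdkn1b. The proliferation markers, with a median of 1.11, lie to the right of the medians of the other lists, and the filled points in the list of kinases, cyclins and an exporter are Ccne1, Ccna2, Ccne2 and Cdk2.

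Over the wild-type ages the same lists moved more, in steps where much of the genome did. From E13.5 to E18.5, 7 of 15 neddylation and COP9 genes fell and none rose, with a median of −0.37, where 17.5% of all genes fell. Those with the smallest p were Gps1 (−0.53, edgeR adjusted p = 0.00485), Cand1 (−0.73, edgeR adjusted p = 0.00523) and Cops6 (−0.67, edgeR adjusted p = 0.00545). Of 7 targets of SKP2, 6 were called over this step, 4 lower and 2 higher, where 16.6% of all genes were called higher. Cdt1 (−1.74, edgeR adjusted p = 3.01e-05) and the origin-binding factor Orc1 (−1.60, edgeR adjusted p = 0.000365) were among those lower, and Cdkn1b (2.16, edgeR adjusted p = 1.08e-05) was among those higher. From PND8 to 12wk, 4 of the 5 genes that control the SKP2 level fell, where 14.3% of all genes did: Fbxo5 (−0.84, edgeR adjusted p = 0.00446), E2f1 (−0.93, edgeR adjusted p = 0.00914) and Foxm1 (−0.79, edgeR adjusted p = 0.0112) had the smallest p. Over that step none of the 5 core and charging enzymes changed while Skp2, Cks1b and Cul1 fell.

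Genes whose levels most resembled each member were named by Pearson's r of log2 CPM over the 29 libraries, which share ages and genotypes, among 12841 genes. For Skp2 they were Cdca4 (r = 0.964), Wdhd1 (0.96) and Rbmxl1 (0.958), and for Cks1b they were Rfc2 (0.978), Ccnb2 (0.977) and Rfc5 (0.974). Rfc2 and Rfc5 encode subunits of the clamp loader of DNA replication and Ccnb2 the mitotic cyclin B2. Cul1 was most like Klhl13 (0.98), Wasf1 (0.978) and Matr3 (0.977), and Rnf123 most like Rgl2 (0.938), Ap5z1 (0.933) and Ulk3 (0.931). Fbxw7 had the loosest likeness, to Ankrd12 (0.843), Bbx (0.827) and Osbpl8 (0.807). Among the members, r was 0.89 between Cks1b and Cul1, 0.80 between Skp2 and Cks1b, −0.73 between Skp2 and Fbxw7 and −0.79 between Cks1b and Rnf123. With Cdkn1b it was −0.85 for Cks1b, −0.75 for Cul1, −0.62 for Skp2, 0.63 for Rnf123 and 0.35 for Fbxw7. These values include the null libraries, where the Cdkn1b count is itself lower. They also span the step from E18.5 to PND8, where the directions of Rnf123 and of wild-type Cks1b depended on the GC and length offset. No such offset was used for r.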

How the data were processed

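Per the file headers, the authors deposited 1 table of RSEM gene-level expected counts, which are read estimates that can be fractional. The submitters' processing notes name Trim Galore, FastQC 0.11.5, STAR 2.5.2 and RSEM 1.3.0. The genome build, the Ensembl release and the strand setting are not given in the sources used here. RSEM splits ambiguous reads between genes, so genes with near copies or overlapping neighbours carry more uncertainty.

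From these values the following was computed. Expected counts were rounded and tested in edgeR 4.0.16 (R 4.3.3) with TMM scaling, a minimum count of 10 and total of 15 (filterByExpr), the robust quasi-likelihood F test and Benjamini-Hochberg adjustment at 0.05, over the groups of each comparison alone (genotype at each age, consecutive ages in each genotype) or over all 29 libraries (interaction). SE is the size of the log2 fold change divided by the square root of F. Symbols were matched to 51633 of the IDs. Positions and exon lengths are those of GENCODE M21 (GRCm38), which may differ from the authors' annotation. All 39 replicate pairs differed by more than counting noise, so none was merged.

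Named genes were the 5 members and Cdkn1b, up to 3 called genes per list with the smallest p, uncalled genes given for contrast and chosen after their values were seen, and the 3 genes of mean CPM 2 or more most like each member. Members and lists were chosen with earlier results of these data known. Lists not described above as changed with genotype at E18.5 (erythroid, endothelial, white blood cell, mesonephros and epithelium) had no called gene in that comparison. Alternatives were RLE scaling, DESeq2 1.42.0, no filter, all groups in 1 fit, the replicate number as a block, each library left out, and, added after seeing the data, a GC and length offset. The scripts were tested on simulated data. The result of a single gene in the list of other F-box genes is not reported here.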

Additional observations from a re-analysis of the deposited data

Results flagged for a closer look

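Of 30 sets of 4 libraries checked for a library far from the rest of its group (the 5 ligase genes and Cdkn1b), 2 held one, where chance would give about 1 in 20. Fbxw7 in wild-type PND8 replicate 2, at 26.11 CPM, stood below the other 3 libraries of its group (29.4 to 30 CPM), and Cdkn1b in wild-type E18.5 replicate 1, at 122.7 CPM, stood above the other 3 (95.2 to 97.7 CPM).

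The effect of the null allele on Cdkn1b itself differed between ages. Its genotype by age interaction had an edgeR adjusted p of 0.00427, and the genotype effect at PND8 exceeded that at E18.5 by 2 on the log2 scale (SE 0.28, edgeR adjusted p = 0.00161), from −3.06 at E18.5 to −1.06 at PND8, so the null libraries held a larger share of the wild-type level at PND8. None of the 5 ligase genes passed these tests.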

How the results depend on the processing

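Of the comparisons of single genes, 38 lost a call, 12 gained one and 3 turned direction with a call under an alternative, and 1363 fold changes kept their side of the threshold, of which 22, none of them called, had the other sign. The 3 that turned with a call did so with the GC and length offset from E18.5 to PND8: Cks1b (0.52) and Rnf123 (−0.92) in wild type and Rnf123 (−0.69) in null libraries. The number of ligase genes called went from 2 to 1 at E18.5 with that offset, where Skp2 was lost (adjusted p 0.0527), and without 1 library it ranged from 1 to 2 at E18.5, from 3 to 5 in null libraries from E18.5 to PND8 and from 1 to 5 in null libraries from PND8 to 12wk. Same-numbered libraries of the genotypes were not treated as pairs in the main fits. The correlation of their deviations averaged −0.017, 0.102, 0.083 and 0.092 at the 4 ages, and 5 of 13 null libraries correlated best with the wild-type library of their number. At E18.5 this correlation across genotypes was positive within replicates 1 and 3 and within replicates 2 and 4 (up to 0.173). It was negative between these sets (down to −0.21). Haemoglobin transcripts made up 1.35% to 3.59% of counts in replicates 1 and 3 and 0.172% to 0.738% in replicates 2 and 4. The part of this split in the E18.5 results was not tested. With the replicate block, 2 ligase genes were called in null libraries from PND8 to 12wk in place of 4, and Cdkn1b had adjusted p of 0.0763 at E13.5 and 0.085 at PND8. The number of all genes called moved more: at E13.5 from 1 to 59 (all groups in 1 fit) and 71 (DESeq2), at E18.5 from 814 to 1676 (DESeq2), at PND8 from 62 to 0 (all groups), 258 (no filter), 741 (DESeq2), 8 (replicate block), 33 (offset) and 4 (offset with replicate block), and at 12wk from 2 to 68, 12, 298, 10, 5 and 0 in that order. DESeq2 called 708 genes for the interaction (edgeR 164), and 412, 175 and 133 for the changes of the genotype effect over the 3 steps (edgeR 133, 67 and 5), where the replicate block gave 5 and 11 for the last 2. Without 1 library the numbers ranged from 0 to 1, 246 to 1372, 0 to 147 and 0 to 3 at the 4 ages, from 2642 to 5129 in null libraries from PND8 to 12wk, from 72 to 235 for the interaction, and from 42 to 206, 2 to 112 and 4 to 26 for the 3 changes. The causes were not tested. The lowest level of the 5 genes was 14.1 CPM. Cdkn1b at 12wk was called with DESeq2 (adjusted p 7.23e-07) and in the fit of all groups (0.000105), which lost it at PND8 (0.106).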
